A study of Homo sapiens with 6 samples.

Results

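The transcripts of 9 genes of zinc handling were followed in T24 cells with and without knockdown of UBC9. T24 is a long-established line grown from a human bladder carcinoma, and UBC9 is the enzyme that conjugates SUMO proteins to their targets. The genes were taken by symbol: 6 metallothioneins (MT1E, MT1F, MT1G, MT1M, MT1X and MT2A) and 3 zinc transporters (SLC30A1, SLC39A8 and SLC39A14), out of 58174 genes in the files. Each gene had 1 row in each of the 6 samples. The 3 shRNA-NC samples carried a scrambled control hairpin and the 3 shRNA-UBC9 samples a hairpin against UBC9, and in both groups the hairpin was stably expressed from a lentiviral vector in cells selected with puromycin. The labels distinguish no separate hairpins against UBC9, so an effect of that hairpin and the loss of UBC9 cannot be told apart. The labels do not say whether the 3 samples of a group were separate cultures, so the p-values measure only the spread between these samples.

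Metallothioneins are small, cysteine-rich proteins that bind zinc and copper in the cytosol and buffer the free pool of these metals. When free zinc rises, the zinc finger factor MTF1 binds metal response elements in promoters and induces metallothionein genes and SLC30A1. Transporters of the ZnT family (SLC30 genes) move zinc out of the cytosol, across the plasma membrane or into organelles, whereas those of the ZIP family (SLC39 genes) move it into the cytosol. Glucocorticoids and oxidative stress are also known to induce metallothioneins.

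The metallothionein genes of human cells lie side by side on chromosome 16 and have closely related coding sequences, which bears on how reads were assigned to them. In GENCODE release 44 (GRCh38) the 16 metallothionein genes and pseudogenes of the cluster spanned chr16:56565073-56684196, with 1 of them, MT1G, on the minus strand. The first bases of the coding sequence are shown to let the copies be compared: bases 1 to 60 of the canonical transcripts of the 5 expressed genes, with capitals at positions that differ from MT2A.
MT2A: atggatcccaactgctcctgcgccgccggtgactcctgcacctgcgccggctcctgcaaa
MT1E: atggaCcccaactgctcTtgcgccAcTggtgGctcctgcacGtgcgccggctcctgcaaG
MT1F: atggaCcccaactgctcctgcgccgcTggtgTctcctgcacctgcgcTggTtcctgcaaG
MT1M: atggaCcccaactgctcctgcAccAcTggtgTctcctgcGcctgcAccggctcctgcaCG
MT1X: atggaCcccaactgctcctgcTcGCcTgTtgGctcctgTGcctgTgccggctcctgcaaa
In these 60 bases MT1F differed from MT2A at 6 positions, MT1E at 7, MT1M at 9 and MT1X at 10. Over the whole coding sequence of 183 bases, the pairs among MT1F, MT1M, MT1X and MT2A were 88.5% to 92.3% identical.

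Promoters are shown because MTF1 acts through them. The RefSeq promoter table (GRCh38.p14) held 4 of the 9 genes: MT2A, MT1X, SLC30A1 and SLC39A8. Entries for MT1E, MT1F, MT1G, MT1M and SLC39A14 were not used here. The 250 bases before the start were searched on both strands for the core of the metal response element, TGCACNC or TGCGCNC, and matches are in capitals. The windows are chr16:56608334-56608583 (plus strand) for MT2A, chr16:56682220-56682469 (plus strand) for MT1X and chr1:211579162-211579411 (minus strand) for SLC30A1.
MT2A: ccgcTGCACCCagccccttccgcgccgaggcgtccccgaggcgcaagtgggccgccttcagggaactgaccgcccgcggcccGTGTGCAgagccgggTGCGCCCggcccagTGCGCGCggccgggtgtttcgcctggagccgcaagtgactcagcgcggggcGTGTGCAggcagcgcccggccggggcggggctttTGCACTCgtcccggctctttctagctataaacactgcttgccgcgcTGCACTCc
MT1X: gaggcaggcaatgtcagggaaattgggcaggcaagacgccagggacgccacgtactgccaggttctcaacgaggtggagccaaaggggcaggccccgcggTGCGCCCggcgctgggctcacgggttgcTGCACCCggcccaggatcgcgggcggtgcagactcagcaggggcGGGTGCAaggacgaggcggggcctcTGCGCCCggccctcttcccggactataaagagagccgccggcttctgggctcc
SLC30A1: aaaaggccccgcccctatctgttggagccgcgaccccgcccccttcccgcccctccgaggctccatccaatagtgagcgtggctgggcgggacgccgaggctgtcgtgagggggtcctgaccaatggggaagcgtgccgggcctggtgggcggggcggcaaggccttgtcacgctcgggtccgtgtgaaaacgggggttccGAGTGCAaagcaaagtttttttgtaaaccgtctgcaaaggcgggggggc
MT2A held 7 matches, a number reached by 0.0313% of the 35116 promoters in the table. MT1X held 4, which 0.370% of promoters reached, and SLC30A1 held 1, which 24.8% reached. The matches within these windows did not overlap each other. SLC39A8 has 3 starts in the table, with 0, 0 and 1 matches. A match is a string of letters and not a measured binding site.

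The values are RPKM as deposited by the authors, which are reads of a gene scaled to its length and to the total reads of the sample. The total of reads behind the scaling was recovered from the smallest values and ranged from 28219032 to 36058872 per sample, with overlap between the groups. Of 13 epithelial and urothelial markers, 7 reached 0.5 RPKM, whereas CDH1, KRT5, KRT20 and the 3 uroplakins stayed below it in all samples. The summed RPKM of the 13 markers was 961 to 1131 in shRNA-NC and 437 to 572 in shRNA-UBC9. KRT7, KRT8, KRT18 and KRT19 made up most of this sum. EPCAM did not follow it, at 0.412 to 0.986 RPKM in shRNA-NC and 0.732 to 2.51 RPKM in shRNA-UBC9. The mesenchymal marker VIM was at 416 to 496 RPKM in shRNA-NC and 286 to 473 RPKM in shRNA-UBC9, with overlap. Of 3 endothelial markers, PECAM1 and VWF were below 0.5 RPKM in all samples, and CDH5 was at 2.58 to 3.15 RPKM in shRNA-NC and 0.241 to 1.02 RPKM in shRNA-UBC9. The leukocyte and fibroblast markers each summed to less than 2 RPKM in every sample. The part of these shifts in the results on zinc genes was not tested.

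Differences were tested with limma, a linear model whose variances are moderated across genes, on log2(RPKM + 0.1) over the 12428 genes with at least 0.5 RPKM in at least 3 of the 6 samples. A log2 fold change is the mean of shRNA-UBC9 minus that of shRNA-NC on this scale, which understates changes of low genes. The Benjamini-Hochberg adjustment ran over all tested genes. Of the 9 genes, 8 passed the filter and MT1G did not. In shRNA-UBC9, MT1E and SLC30A1 fell, to 53.9% and 64.6% of the control mean, while MT2A and SLC39A8 rose, to 136.2% and 187.0%. MT1F, MT1M, MT1X and SLC39A14 did not pass an adjusted p of 0.05. With the cutoff for differentially expressed genes (DEGs) of |log2 fold change| > 1 and adjusted p below 0.05, none of the 8 genes was a DEG by limma. The count was also 0 with limma-voom on recovered reads. It was 0 with an unadjusted p below 0.05 too, but that could not differ, since every fold change stayed under the cutoff. SLC39A8 was a DEG without shRNA-NC replicate 2 (log2 fold change 1.08) and without shRNA-UBC9 replicate 3 (1.12). Among all tested genes, 5.20% were up-regulated and 2.70% down-regulated DEGs. At an adjusted p below 0.05 and any fold change, 2 of the 8 genes were higher and 2 were lower, beside 18.8% and 18.0% of all tested genes. In 1 of the 8 genes, all shRNA-UBC9 samples lay above all shRNA-NC samples, and in 2 of them below, beside 25.7% and 25.4% of all tested genes. Counts this small do not set the 8 genes apart from that background. For a single value, the smallest p of an exact permutation test with these group sizes is 0.1. In bulk RNA, fewer cells that express a gene and less RNA per cell cannot be told apart.

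**Figure D1:**
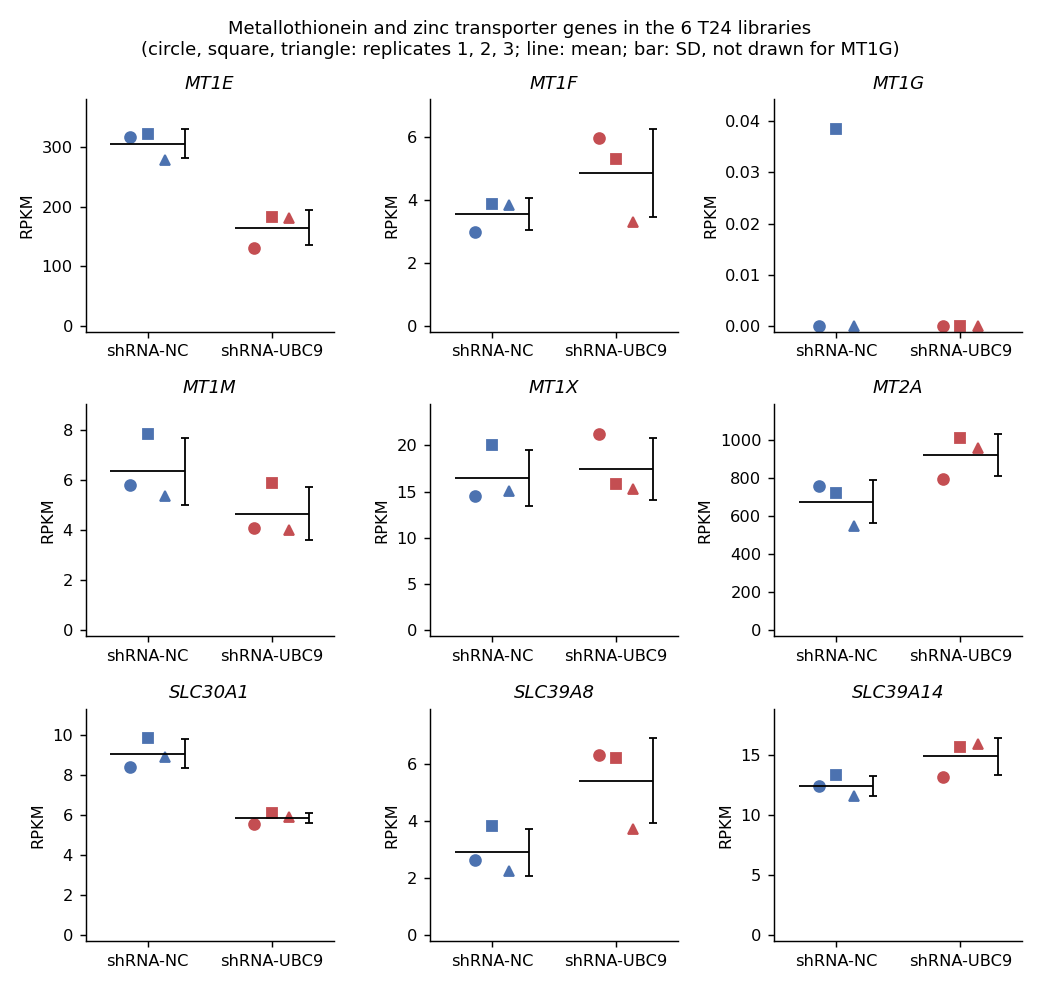
RPKM (vertical axes, linear, a separate scale for each gene) of the 9 genes in the 3 shRNA-NC and 3 shRNA-UBC9 samples. Points are samples, lines are means and bars are the SD. The groups do not overlap for MT1E, MT2A and SLC30A1, whereas 1 shRNA-UBC9 sample of SLC39A8 (3.70 RPKM) lies just under the highest shRNA-NC sample (3.81 RPKM).

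MT1E encodes a metallothionein that binds zinc and copper, and it was the second most abundant of the 6 genes in every sample. It lies at chr16:56625475-56627112. MT1E was at 318, 323 and 278 RPKM in shRNA-NC, replicates 1 to 3, and at 130, 183 and 182 RPKM in shRNA-UBC9. Every shRNA-UBC9 sample was below every shRNA-NC sample, and the lowest was shRNA-UBC9 replicate 1. The mean fell from 306 ± 24.3 to 165 ± 30.0 RPKM (SD, n = 3 each). The log2 fold change was -0.91 (SE 0.14, 95% interval -1.23 to -0.58) with an adjusted p of 0.00204 by limma. The interval includes a change of -1. Between 4949 and 11751 reads lay behind each MT1E value, so counting error was at most 1.42% of a value, well under the spread between samples.

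MT2A encodes the metallothionein that most human cells make in the largest amount, and here it had the highest level of the 6 genes in every sample. It lies at chr16:56608584-56609497. Its level was 759, 722 and 547 RPKM in shRNA-NC and 794, 1011 and 957 RPKM in shRNA-UBC9. The groups did not overlap, although shRNA-UBC9 replicate 1 exceeded shRNA-NC replicate 1 by only a small margin. The mean was 676 ± 113 RPKM in the controls and 921 ± 113 RPKM in the knockdown (SD, n = 3 each). The log2 fold change was 0.45 (SE 0.15, 95% interval 0.12 to 0.79), with an adjusted p of 0.0402 by limma. Over 15 alternatives the direction of MT2A was the same in 15, but its adjusted p ranged from 0.023 to 0.192 and was below 0.05 in 6. It was 0.0554 without shRNA-NC replicate 2, 0.114 without shRNA-NC replicate 3, 0.122 without shRNA-UBC9 replicate 2 and 0.0887 without shRNA-UBC9 replicate 3.

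The shares of MT2A and MT1E in the metallothionein mRNA did not overlap between the groups, whereas the sum of the 6 genes did. The 6 genes summed to 1100, 1077 and 849 RPKM in shRNA-NC and to 956, 1221 and 1161 RPKM in shRNA-UBC9. MT2A made up 66.8% ± 2.30 of this sum in shRNA-NC and 82.8% ± 0.334 in shRNA-UBC9 (SD, n = 3 each). The share of MT1E was 30.5% ± 1.99 and 14.8% ± 1.02 (SD, n = 3 each). The ratio of MT2A to MT1E does not depend on the scaling of a sample, since both values come from the same library. It was 2.39, 2.24 and 1.97 in shRNA-NC and 6.09, 5.52 and 5.27 in shRNA-UBC9, and on the log2 scale its mean was 1.13 ± 0.14 and 2.49 ± 0.11 (SD, n = 3 each), a difference of 1.36. Every MT2A value was higher and every MT1E value lower in shRNA-UBC9, so the ratio could not overlap and restates those rows. MT2A and MT1E made up nearly all of the sum, so their shares mirror each other and restate the same rows. The ratio and the shares were not tested. Ranked by RPKM among all genes of a sample, MT2A stood at 22, 22 and 35 in shRNA-NC and at 20, 16 and 17 in shRNA-UBC9. MT1E stood at 80, 74 and 102 in shRNA-NC and at 234, 157 and 155 in shRNA-UBC9.

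**Figure D2:**
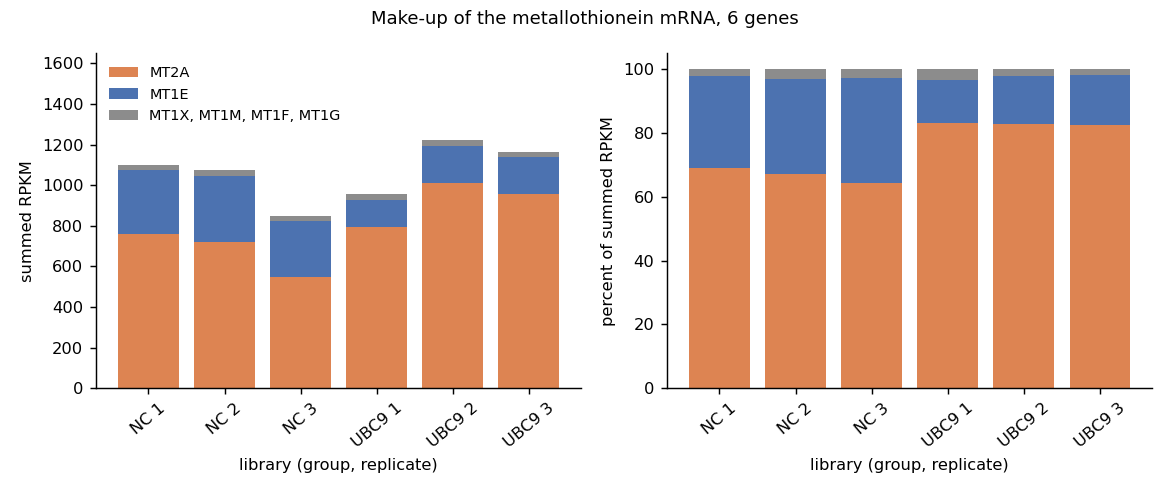
Summed RPKM of the 6 metallothionein genes (left, linear axis from 0) and percent of that sum (right) in each of the 6 samples, stacked by gene. The height of the bars overlaps between the groups (849 to 1100 RPKM in shRNA-NC and 956 to 1221 RPKM in shRNA-UBC9), whereas the MT1E share lies between 28.9% and 32.8% in shRNA-NC and between 13.6% and 15.6% in shRNA-UBC9.

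MT1X, MT1M and MT1F, further metallothioneins of the same metal-binding fold, were far less abundant, and none of them passed the test. MT1X (chr16:56682470-56684196) was at 14.5, 20.0 and 15.0 RPKM in shRNA-NC and at 21.3, 15.8 and 15.3 RPKM in shRNA-UBC9. The groups overlapped, and the log2 fold change was 0.08 (SE 0.16, 95% interval -0.30 to 0.45, adjusted p = 0.738 by limma). MT1M (chr16:56632659-56633981) was at 5.80, 7.85 and 5.36 RPKM in shRNA-NC and at 4.09, 5.87 and 3.99 RPKM in shRNA-UBC9. Replicate 2 was the highest sample of MT1M in each group, and its value in shRNA-UBC9 lay above shRNA-NC replicates 1 and 3. The log2 fold change of MT1M was -0.44 (SE 0.19, 95% interval -0.87 to -0.01, adjusted p = 0.097 by limma). It was -0.62 with an adjusted p of 0.0317 without shRNA-UBC9 replicate 2, and -0.28 with an adjusted p of 0.265 without shRNA-NC replicate 2.

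MT1F (chr16:56657731-56660698) was at 2.98, 3.88 and 3.83 RPKM in shRNA-NC and at 5.98, 5.31 and 3.29 RPKM in shRNA-UBC9. Replicates 1 and 2 of shRNA-UBC9 were above all control samples and replicate 3 lay within their range. Its log2 fold change was 0.40 (SE 0.21, 95% interval -0.09 to 0.89, adjusted p = 0.174 by limma). It was 0.66 with an adjusted p of 0.012 without shRNA-UBC9 replicate 3, 0.23 (0.412) without shRNA-UBC9 replicate 1 and 0.28 (0.411) without shRNA-NC replicate 1. MT1F rested on 90 to 218 reads per sample and MT1M on 106 to 256, with a counting error of up to 10.5% and 9.71% of a value, which is part of the spread between samples. MT1G (chr16:56666730-56668065) was listed at 0 in 5 samples and at 0.038 RPKM in shRNA-NC replicate 2, which is 1 read at its GENCODE length. None of the 6 other metallothionein genes listed (MT1A, MT1B, MT1H, MT1HL1, MT3 and MT4) and none of the 8 pseudogenes in the files reached the filter. Their values above 0 corresponded to no more than about 1 read at GENCODE length.

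Reads that fit several copies could be split among them, and the handling of such reads is not given in the sources used here, nor are the read length and the use of strand. Windows of the canonical transcripts (GENCODE release 44) were therefore searched for exact copies in transcripts of other genes. At 50 bases, 10.3% of the windows of MT1E, 11.1% of MT2A, 14.6% of MT1M, 6.12% of MT1F and 19.9% of MT1G had a copy, and 51.0% of MT1X. At 100 and at 150 bases no window of MT1E, MT2A, MT1M, MT1F or MT1G had one. For MT1X, 22.0% of windows at 100 bases and 6.67% at 150 bases were shared with another annotated gene that has no symbol. Only exact identity was searched, so reads placed with mismatches are not covered. The canonical transcripts had 746 (MT1E), 401 (MT2A), 398 (MT1M), 425 (MT1F) and 404 bases (MT1X). The gene lengths recovered from the RPKM values were longer, at 1052, 1299, 942, 1011 and 823 bases in that order. Any further sequence counted for these genes was not searched. A sum over copies depends less on how their reads were split, apart from the lengths used for scaling and reads shared with MT2A. All 16 MT1 rows, pseudogenes included, summed to 341, 354 and 303 RPKM in shRNA-NC and to 162, 210 and 204 RPKM in shRNA-UBC9. The sum fell without overlap, with a log2 fold change of -0.80 (SE 0.12, adjusted p = 0.00171 by limma), and it stayed below an adjusted p of 0.05 in 15 of 15 alternatives. MT1E made up most of this sum.

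**Figure D3:**
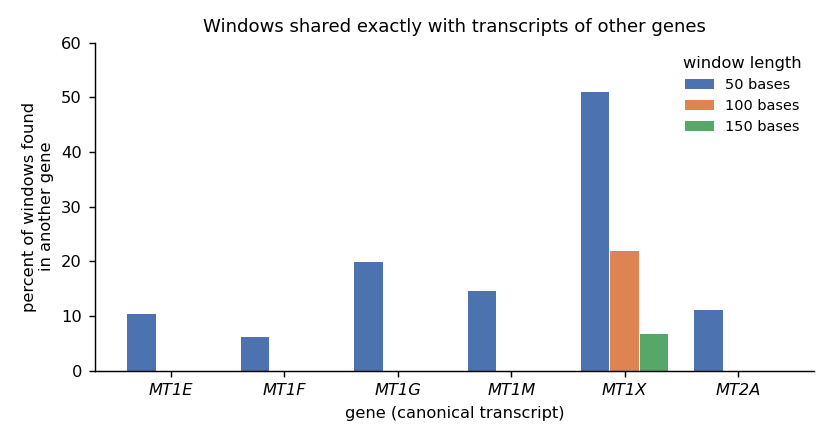
Percent of windows of each metallothionein transcript (vertical axis) that have an exact copy in a transcript of another gene, for windows of 50, 100 and 150 bases. At 50 bases the share runs from 6.12% for MT1F to 51.0% for MT1X, and at 100 and 150 bases it is 0 for every gene but MT1X.

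SLC30A1 encodes ZnT1, the zinc exporter of the plasma membrane and, like the metallothioneins, a target of MTF1. It lies at chr1:211571568-211579161 on the minus strand. SLC30A1 was at 8.40, 9.82 and 8.90 RPKM in shRNA-NC and at 5.55, 6.07 and 5.89 RPKM in shRNA-UBC9. The groups did not overlap, and the spread within shRNA-UBC9 was small. The control mean of 9.04 ± 0.722 fell to 5.84 ± 0.261 RPKM (SD, n = 3 each). This is a log2 fold change of -0.62 (SE 0.09, 95% interval -0.83 to -0.41, adjusted p = 0.00174 by limma). The adjusted p of SLC30A1 was below 0.05 in 15 of 15 alternatives, with log2 fold changes from -0.67 to -0.55. At least 910 reads lay behind each value.

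SLC39A8 encodes ZIP8, an importer of zinc and manganese, and lies at chr4:102251080-102431258 on the minus strand. Its level was 2.64, 3.81 and 2.24 RPKM in shRNA-NC and 6.33, 6.23 and 3.70 RPKM in shRNA-UBC9. The groups overlapped, since shRNA-UBC9 replicate 3 lay below shRNA-NC replicate 2. The control mean of 2.90 ± 0.818 rose to 5.42 ± 1.49 RPKM (SD, n = 3 each). The log2 fold change was 0.87 (SE 0.25, 95% interval 0.31 to 1.44, adjusted p = 0.0248 by limma). Without shRNA-NC replicate 2 the log2 fold change was 1.08, and without shRNA-UBC9 replicate 3 it was 1.12, both past the cutoff for DEGs. The adjusted p was below 0.05 in 10 of 15 alternatives. It was 0.0786 without shRNA-NC replicate 1, 0.0882 without shRNA-NC replicate 3, 0.061 without shRNA-UBC9 replicate 1 and 0.0766 without shRNA-UBC9 replicate 2.

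SLC39A14 encodes ZIP14, which carries zinc, manganese and iron into cells, and lies at chr8:22367278-22434129. It was at 12.5, 13.3 and 11.6 RPKM in shRNA-NC and at 13.2, 15.7 and 15.9 RPKM in shRNA-UBC9. Replicate 1 of shRNA-UBC9 lay within the control range and the other two lay above it. The log2 fold change was 0.25 (SE 0.10, 95% interval 0.02 to 0.49, adjusted p = 0.088 by limma), and without shRNA-UBC9 replicate 1 it was 0.34 with an adjusted p of 0.0259.

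The whole transporter families were counted to place the 3 genes. Of 10 ZnT genes, 6 were tested. SLC30A1, which fell, was the only one to pass an adjusted p of 0.05, beside 18.0% lower and 18.8% higher of all tested genes. The median log2 fold change was -0.06 over the 6 ZnT genes, beside 0.005 over all tested genes. SLC30A5, SLC30A6, SLC30A7 and SLC30A9, which act on internal compartments of the cell, had log2 fold changes of 0.19, -0.08, -0.05 and -0.01. Of 14 ZIP genes, 11 were tested, of which 5 rose, 1 fell and 5 did not pass, beside 18.8% higher and 18.0% lower of all tested genes, with a median of 0.30. Beside SLC39A8, those that rose were SLC39A1 (log2 fold change 0.43), SLC39A3 (0.42), SLC39A4 (0.45) and SLC39A13 (0.31). SLC39A1, the most abundant of these 5, rose from 44.4 ± 2.13 to 60.02 ± 2.88 RPKM (SD, n = 3 each, adjusted p = 0.00465 by limma) and kept its side of the threshold in 15 of 15 alternatives. The call of SLC39A3 was lost without replicate 2 or 3 of shRNA-NC (adjusted p of 0.0948 and 0.133) and without replicate 2 or 3 of shRNA-UBC9 (0.114 and 0.11). That of SLC39A4 was lost without the same 4 samples (0.0667, 0.102, 0.0628 and 0.084). That of SLC39A13 was lost without replicate 2 or 3 of shRNA-NC (0.0817 and 0.106) and without replicate 1 or 2 of shRNA-UBC9 (0.0658 and 0.0612). Other settings lost calls as well. For SLC39A3 these were no filter on low values (adjusted p = 0.0803 by limma), quantile normalization (0.0611), median scaling (0.0633) and no intensity trend (0.0536). For SLC39A4 they were no filter (0.063) and quantile normalization (0.0533), and for SLC39A13 median scaling (0.0597).

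SLC39A10, which encodes the plasma membrane importer ZIP10, moved the other way and was a DEG. Its level was 7.72, 9.93 and 8.43 RPKM in shRNA-NC and 2.71, 2.22 and 2.87 RPKM in shRNA-UBC9. Its log2 fold change was -1.70 (SE 0.13, adjusted p = 9.41e-05 by limma). SLC39A11 was at 1.53 ± 0.164 and 1.08 ± 0.187 RPKM (SD, n = 3 each), with an adjusted p of 0.0504 by limma. It passed with quantile normalization (0.0341), median scaling (0.0364), a pseudocount of 1 (0.0477), no intensity trend (0.0379) and limma-voom (0.0405). It did not pass with a pseudocount of 0.01 (0.0509), without the filter (0.116), with a replicate block (0.0994) or with any sample left out. SLC39A6, SLC39A7 and SLC39A9 had log2 fold changes of 0.30, 0.20 and 0.22 without passing the test, although SLC39A6 passed without shRNA-NC replicate 2 (adjusted p = 0.0152 by limma). Summed over the family, ZIP genes were at 179 to 186 RPKM in shRNA-NC and 217 to 221 RPKM in shRNA-UBC9, and ZnT genes at 39.1 to 46.0 and 38.8 to 41.7 RPKM. The ZIP sums did not overlap and the ZnT sums did. SLC39A7, SLC39A1 and SLC39A6 made up most of the ZIP sum, and of these only SLC39A1 passed the test. Among single tested genes, 25.7% also had all shRNA-UBC9 samples above all shRNA-NC samples.

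**Figure D4:**
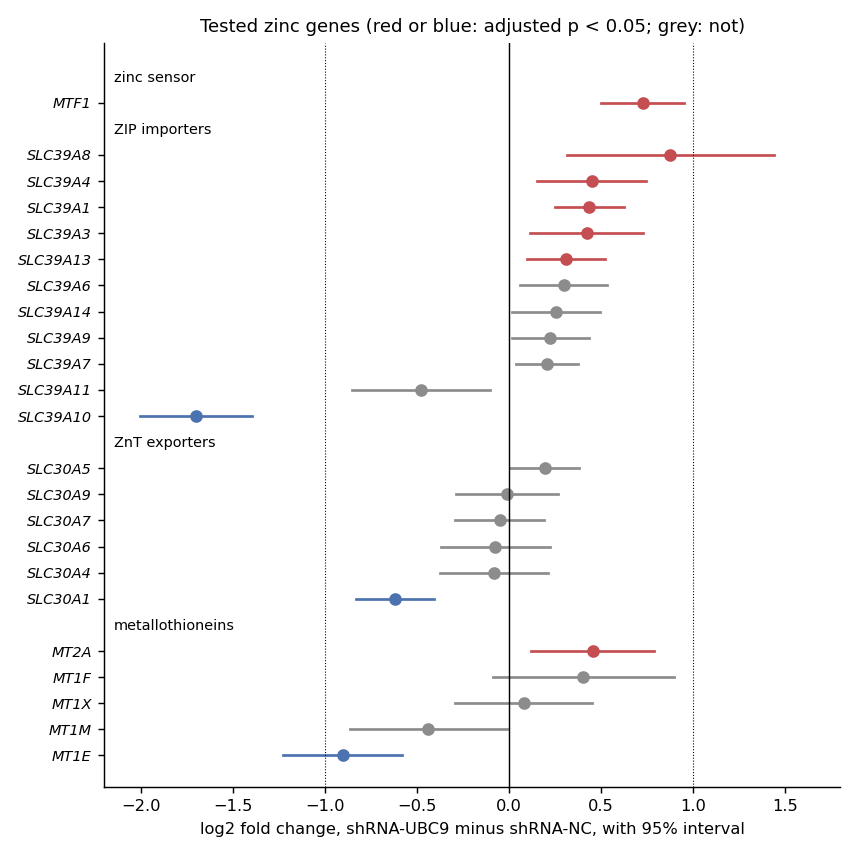
Log2 fold change (horizontal axis, shRNA-UBC9 minus shRNA-NC, with its 95% interval) of the tested metallothioneins, ZnT exporters, ZIP importers and MTF1. Red and blue mark genes with an adjusted p below 0.05 and dotted lines a change of 1. SLC39A10 at -1.70 is the only gene whose point lies past a dotted line, and the metallothioneins lie on both sides of 0, from MT1E at -0.91 to MT2A at 0.45.

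MTF1, the zinc sensor that induces metallothioneins and SLC30A1, was at 3.47, 3.74 and 3.25 RPKM in shRNA-NC and at 5.65, 6.30 and 5.56 RPKM in shRNA-UBC9. The groups did not overlap. The log2 fold change was 0.73 (SE 0.10, 95% interval 0.50 to 0.95, adjusted p = 0.00113 by limma), and it was below an adjusted p of 0.05 in 15 of 15 alternatives. Of the genes above with matches to its motif, SLC30A1 was lower in shRNA-UBC9, MT2A was higher and MT1X did not pass the test. SLC39A8, which had a match at some but not all of its starts, was higher. A part of MTF1 in these changes was not tested.

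Genes of other metals and of known inducers of metallothioneins were counted on lists. Of 10 copper genes tested, 3 rose and 7 did not pass an adjusted p of 0.05, beside 18.8% higher among all tested genes. Those that rose were the copper transporter SLC31A2 (log2 fold change 0.72) and the copper chaperones ATOX1 (0.54) and COX17 (0.54). SOD1, the copper and zinc superoxide dismutase, was at 77.8 ± 1.88 and 70.6 ± 2.69 RPKM (SD, n = 3 each, adjusted p = 0.184 by limma). Of 10 tested iron and manganese genes, 4 rose and 1 fell, beside 18.8% and 18.0% of all tested genes. Of these, 2 were up-regulated and 1 a down-regulated DEG, beside 5.20% and 2.70%. FTH1, the ferritin heavy chain that stores iron, was at 665 ± 44.7 RPKM in shRNA-NC and at 1958 ± 292 RPKM in shRNA-UBC9 (SD, n = 3 each). It rose by 1.55 on the log2 scale (adjusted p = 9.68e-05 by limma). FTL, the ferritin light chain, was at 596 ± 14.9 and 599 ± 93.2 RPKM (adjusted p = 0.985 by limma). The mitochondrial iron importer SLC25A37 rose by 1.39 on the log2 scale, and ACO1, an aconitase that also binds iron response elements, fell by 1.28. SLC11A2 rose by 0.59 and SLC25A28 by 0.72. SLC25A28 was highest in shRNA-UBC9 replicate 2 (24.8 RPKM, with 14.6 and 15.2 RPKM in the other two), and its log2 fold change was 0.47 without that sample. Its adjusted p was 0.0591 without shRNA-NC replicate 1 and 0.0628 without shRNA-NC replicate 3.

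Of 12 NRF2 pathway genes, 4 rose and 8 did not pass, beside 18.8% higher among all tested genes. Those that rose were HMOX1, the haem oxygenase (log2 fold change 1.12, a DEG), OSGIN1 (0.96), SRXN1 (0.64) and NFE2L2, which encodes NRF2 itself (0.40). Without shRNA-UBC9 replicate 2, HMOX1 was at 0.93 and no longer a DEG, and NFE2L2 had an adjusted p of 0.0693. Without shRNA-NC replicate 1, NFE2L2 had an adjusted p of 0.0696 and OSGIN1 a log2 fold change of 1.17, past the DEG cutoff, as it was without shRNA-UBC9 replicate 1 (1.11). TXN, a thioredoxin, had a log2 fold change of 0.00 with a 95% interval from -0.27 to 0.27. Of 7 tested genes of the glucocorticoid receptor and its targets, 1 rose, 1 fell and 5 did not pass, beside 18.8% higher and 18.0% lower of all tested genes. The kinase gene SGK1 rose (1.12) and the transcription factor gene KLF9 fell (-1.11). Both were DEGs, beside 5.20% up-regulated and 2.70% down-regulated among all tested genes. SGK1 was under the fold cutoff without shRNA-UBC9 replicate 1 (0.97) and KLF9 without shRNA-NC replicate 3 (-0.92) or shRNA-UBC9 replicate 3 (-0.89). With a pseudocount of 1, neither was a DEG (0.97 for SGK1 and -0.62 for KLF9). DUSP1, a phosphatase, was at 59.6 ± 9.51 and 78.3 ± 9.73 RPKM (SD, n = 3 each, adjusted p = 0.0514 by limma), and passed without shRNA-NC replicate 2 (0.0251) or shRNA-UBC9 replicate 1 (0.0298). The median log2 fold changes were 0.18 for copper, iron and NRF2 genes alike and 0.12 for glucocorticoid genes, beside 0.005 over all tested genes.

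**Figure D5:**
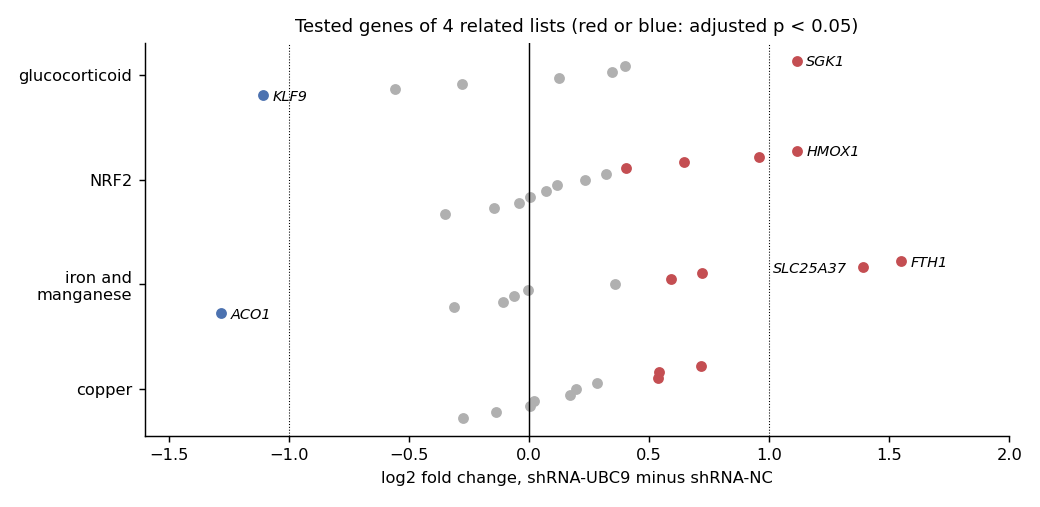
Log2 fold change (horizontal axis, shRNA-UBC9 minus shRNA-NC) of the tested genes of the copper, iron and manganese, NRF2 and glucocorticoid lists, 1 point per gene. Red and blue points have an adjusted p below 0.05, and genes past a change of 1 (dotted lines) are named, from ACO1 at -1.28 to FTH1 at 1.55.

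The mean log2(RPKM + 0.1) of the 5 tested metallothioneins was 5.11 to 5.43 in shRNA-NC and 5.03 to 5.30 in shRNA-UBC9. In each group replicate 2 was the highest and replicate 3 the lowest. Each gene had the same weight in this mean, so MT1E (log2 fold change -0.91) and MT2A (0.45) offset each other in part. In shRNA-UBC9, MT1E and MT2A were both lowest in replicate 1, so the mean does not follow the most abundant metallothioneins. Over the 6 samples, the tested genes with the pattern most similar to this mean were AC005682.5 (Pearson r = 0.994), RANBP17 (0.968), ZNF702P (0.955), RNF144B (0.953) and PCGF5 (0.950). They were taken as the highest of all tested genes, the 6 points share their libraries, and none of the 5 passed the test between the groups.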

How the data were processed

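RNA from 3 shRNA-NC and 3 shRNA-UBC9 T24 samples was sequenced from Illumina TruSeq libraries. After adaptor trimming, the authors aligned the reads to GRCh38 using CLC Biomedical Genomics Workbench defaults, and the deposited values are RPKM per gene symbol. The annotation release is not given in the sources used here. RPKM corrects for length and depth but not for RNA composition, and low values depend on the pseudocount.

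The 9 genes and all lists were chosen with earlier results of these data known. Groups came from the sample labels. From the deposited RPKM, log2(RPKM + 0.1) was tested with limma 3.58.1 in R 4.3.3 (lmFit, eBayes with an intensity trend) on all 12428 genes with at least 0.5 RPKM in at least 3 samples. Named genes were the 9 genes, MTF1, list genes with an adjusted p below 0.05, up to 4 further list genes of high level, and the 5 genes of most similar pattern. In the non-zinc lists 1 further gene was named. The level of the targeted gene is not reported here.

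RPKM rises in steps of 1 read, so the total reads of each sample and the reads of each gene were recovered: for 12428 of 12428 tested genes (100%) a length was found at which all 6 samples gave reads within 0.02 of a whole number. The shortest such length was taken. Of the 11328 of these genes in GENCODE release 44, it equalled the exon length there for 2027. Since the annotation behind the values is not given, the recovered lengths and reads could not be checked against it. Counting errors cover sampling of reads only. These reads were also tested with limma-voom, a choice made after seeing the data. The other alternatives were pseudocounts, filters, normalization, no trend, a replicate block, an unadjusted p and leaving out each sample. The fit was tested on simulated data. Python 3.11.15, numpy 2.4.6, pandas 2.3.3 and matplotlib 3.10.9 were used.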

Additional observations from a re-analysis of the deposited data

How the results depend on the processing

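MT1E, SLC30A1 and the summed MT1 rows kept their direction and an adjusted p below 0.05 in 15 of 15 alternatives, and no metallothionein was a DEG in any of them. The metallothioneins with an adjusted p below 0.05 numbered 2, and 1 without a filter on low values, with quantile normalization, with median scaling and without an intensity trend, in each case because MT2A did not pass. Leaving out 1 sample gave 1 to 2. The zinc transporters with an adjusted p below 0.05 numbered 2, and 1 without the filter (SLC39A8 at 0.0692) and 1 to 2 with a sample left out. With a sample left out, 0 to 1 of them was a DEG. SLC39A8 entered or left both counts, and SLC39A14 entered the first without shRNA-UBC9 replicate 1, where SLC39A8 left it. DEGs on the lists numbered 7, and 5 to 8 over the alternatives. The lists held 5 other ZnT, 9 other ZIP, 10 copper, 10 iron and manganese, 12 NRF2 and 7 glucocorticoid genes tested, and MTF1. Among all tested genes, 5.20% were up-regulated and 2.70% down-regulated DEGs. The lists were chosen with earlier results of these data known, so this count is no result about them.

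DEGs over all genes numbered 391 up-regulated and 161 down-regulated with a pseudocount of 1, 342 and 210 with at least 1 RPKM required in all 6 samples, and 688 and 368 with limma-voom on recovered reads, against 646 and 335. The first of these settings shrinks the fold changes of low genes and the second leaves such genes out. Samples of both groups are numbered 1 to 3, but like-numbered samples did not move together (correlations -0.37, 0.07 and -0.17), so a replicate block was only an alternative. With the block there were 642 up-regulated and 332 down-regulated DEGs, MT2A had an adjusted p of 0.068 and MT1M of 0.0232, and the summed MT1 rows kept -0.80 (adjusted p = 0.00642 by limma). SLC39A3, SLC39A4, SLC39A13 and NFE2L2 did not pass with it (0.0913, 0.0735, 0.0554 and 0.0601).

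Values near 0 changed sign in some alternatives, and the cause was not tested. TXN was -0.0693 with quantile normalization and -0.0413 with median scaling. With a sample left out, the log2 fold change ran from -0.0722 to 0.22 for MT1X, -0.11 to 0.0794 for SLC30A9, -0.19 to 0.0541 for SLC30A6, -0.12 to 0.0076 for SLC30A7, -0.10 to 0.13 for FTL, -0.0762 to 0.11 for TXN, -0.13 to 0.0346 for ZNF702P and -0.10 to 0.0402 for PCGF5. Of the named genes' values under the alternatives, 648 kept direction and side of the threshold, 42 lost it, 23 gained it and 19 changed sign. MT1F and MT1M rest on few reads, and MT1G on 1 read in 1 sample.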
